A study of Mus musculus with 6 samples.

Results

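The Siglecs are sialic acid-binding receptors of the immunoglobulin superfamily, and 7 of their genes were followed in brain microglia of lupus-prone mice. The members are Siglech, Siglec1, Siglece, Siglecf, Siglecg, Cd33 and Cd22, chosen by matching the Ensembl identifiers of the count table to these mouse symbols. All 7 were found among the 55401 gene identifiers of the table, and all 7 were among the 19554 genes with enough counts to be tested.

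The study compared the microglial transcriptomes of a lupus model and its control strain. MRL/lpr mice carry lpr, a spontaneous mutation of the death receptor gene Fas, on the MRL background, and develop a systemic autoimmune disease that resembles lupus. MRL/mpj mice have the same MRL background without the lpr mutation. The animals of both strains were 6 weeks old and untreated, and brain cells were taken through a Percoll gradient and magnetic selection for CD11b. There were 3 RNA-seq libraries per strain. CD11b is carried by microglia and by other myeloid cells, so the selection does not by itself separate microglia from border macrophages, monocytes or neutrophils. The sources do not say whether a library came from 1 mouse or from a pool, so the spread between libraries may be technical in part, and each p-value measures only that spread.

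Siglecs read sialic acid, the sugar that caps most glycans on the surface of vertebrate cells. Most of them carry tyrosine motifs in their cytoplasmic tail that recruit the phosphatases SHP-1 and SHP-2, encoded by Ptpn6 and Ptpn11, and so dampen activation of the cell. Siglec-H instead lacks such motifs and couples to the adaptor DAP12, encoded by Tyrobp, while sialoadhesin, the product of Siglec1, works mainly as an adhesion receptor. In the brain, Siglec-H is used as a microglial marker, and Siglec-E and human CD33 are known for restraining phagocytosis by microglia.

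Total counts ran from 45481609 to 49846634 per library. Values near 4 counts were common, with 1138 to 1288 genes at 4 counts against 320 to 415 genes at 3 counts, so that 1 read pair appears to be worth 4 counts. The microglial markers were abundant in each library: Csf1r, the receptor for colony-stimulating factor 1, had 439669 to 516161 counts, and the summed level of the 10 microglial markers was 22300 to 25500 CPM (counts scaled by TMM to a common library total) in MRL/lpr and 26700 to 27300 CPM in MRL/mpj. Fas had 282 to 461 counts in MRL/lpr and 362 to 432 counts in MRL/mpj, so its count did not separate the strains. The strain labels were therefore not checked by Fas, and the mutation itself was not looked for in the reads. The study's methods describe female mice and the labels give no sex, yet Xist, which is transcribed from the inactive X chromosome of females, was at 8886 to 11319 counts in MRL/lpr and at 27 to 38 counts in MRL/mpj, while the Y-linked gene Ddx3y had 3690 to 5720 and 5505 to 7559 counts, respectively. The sex make-up of the libraries therefore differed between the strains, and the effects of strain and sex on the Siglec genes cannot be told apart. MRL/lpr replicate 3 stood apart from the others in having 6.38% of its counts in 1 gene, against 1.09% to 1.95% for the top gene elsewhere. The mitochondrial share of the counts was 3.06% to 3.49% in MRL/lpr and 5.84% to 6.38% in MRL/mpj, so it also differed with strain.

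The Siglec genes moved in both directions between the strains. Siglec1, Siglecg and Siglece were higher in MRL/lpr, by 8.8-fold, 4.45-fold and 1.63-fold. Siglecf and Cd33 were lower, by 1.81-fold and 1.28-fold. In bulk RNA of this kind, more cells of a type and more RNA per cell cannot be told apart. For Siglech and Cd22 the test did not reach its threshold, an adjusted p-value under 0.05 from the quasi-likelihood test of edgeR, corrected over the 19554 genes by the Benjamini-Hochberg method. Of the 7 members, 3 thus rose and 2 fell, beside a background of 20.2% of all tested genes passing the same test, 11.1% higher and 9.06% lower. Siglec1 and Siglecg also met the minimum absolute log2 fold change of 1 for differential expression, which 8.34% of tested genes did (4.67% higher and 3.66% lower), and no member fell that far. The libraries of the strains did not overlap for the 5 members that passed, as for 39% of all tested genes. Without MRL/lpr replicate 3 the members that rose were still 3 and those that fell came to 1, because Cd33 no longer passed.

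**Figure D1:**
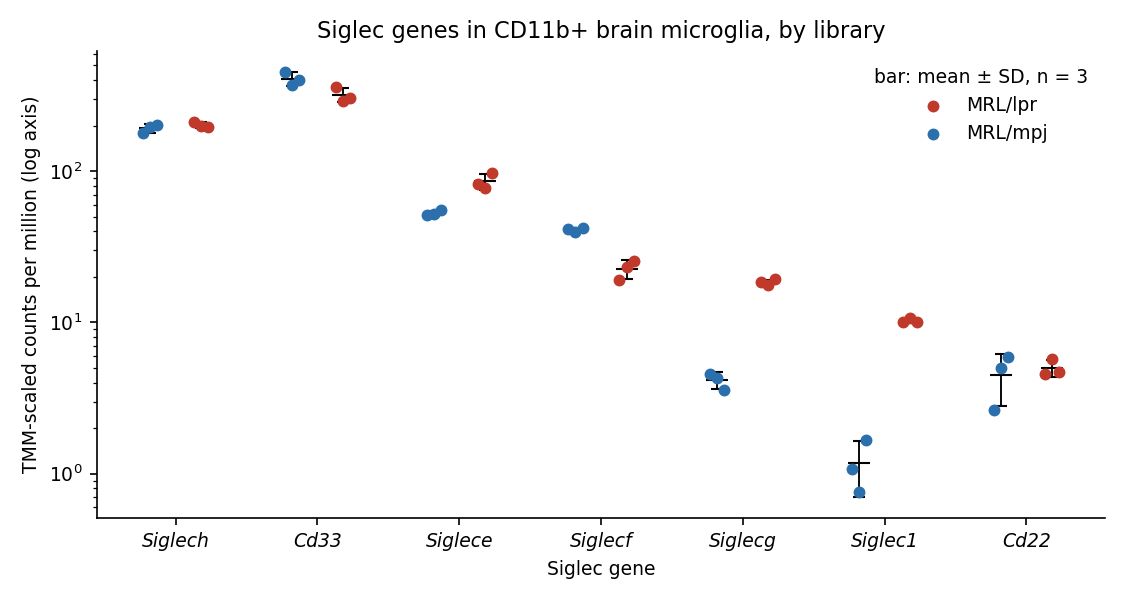
TMM-scaled CPM (log axis) of the 7 Siglec genes in each library, with MRL/mpj in blue on the left and MRL/lpr in red on the right of each gene, and bars for the mean ± SD (n = 3). Siglec1 and Siglecg sit far higher in the red points, Siglece moderately higher, Siglecf and Cd33 lower, and the points of Siglech and Cd22 overlap.

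Siglech (ENSMUSG00000051504, chr7:55768178-55778925, plus strand, GRCm38) had the highest mean level per length in both strains, though its range overlapped with that of Cd33 in MRL/mpj. Its log2 fold change was the smallest in size of the 7 members. Its counts were 9978, 9370 and 8140 in MRL/lpr replicates 1 to 3 and 9186, 9794 and 10477 in MRL/mpj replicates 1 to 3. The lowest and the highest of the 6 values thus belonged to different strains, with the other libraries between them. Scaled by TMM, the level was 202 ± 9.1 CPM in MRL/lpr and 192 ± 11.8 CPM in MRL/mpj (mean ± SD, n = 3 each), which is 0.07 on the log2 scale (adjusted p 0.538, edgeR). Its 95% confidence interval ran from -0.09 to 0.23, so that a strain difference of the size seen for Siglece lay outside it. The sign of the difference depended on the scaling, being 0.07 with TMM and -0.05 with library size only. Siglech is also known from plasmacytoid dendritic cells, and the summed level of 8 markers of these cells was 147 to 180 CPM in MRL/lpr and 135 to 160 CPM in MRL/mpj, most of it from the widely expressed transcription factor gene Tcf4, while Ccr9, a defining marker, had 44 to 57 counts in each library. Of these 8 markers 2 fell, Cox6a2 (log2 fold change -1.64, adjusted p 0.00176) and Pacsin1 (-0.71, 0.0279, both edgeR), the latter lost in 5 of the 16 alternatives. The median log2 fold change of the 8 was 0.35, against -0.01 over all tested genes, of which 9.06% were lower.

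Siglece (ENSMUSG00000030474, chr7:43651070-43660161, minus strand) encodes an inhibitory receptor of neutrophils, monocytes and microglia. The MRL/lpr libraries had 3848, 3649 and 4075 counts and the MRL/mpj libraries 2620, 2593 and 2865 counts. Every MRL/lpr library lay above every MRL/mpj library, and the spread within either strain was small beside the gap. The means were 85.6 ± 10.5 and 52.6 ± 2.15 CPM (SD, n = 3 each), and the gene rose by a log2 fold change of 0.70 (SE 0.10, adjusted p 9e-04, edgeR). In the same libraries, the 7 neutrophil markers summed to 579 to 659 CPM in MRL/lpr and 451 to 510 CPM in MRL/mpj. Of these 7 markers 3 rose, none by a log2 fold change of 1 or more. The call of the marker Retnlg changed in 12 of the 16 alternative analyses and that of S100a8 in 7. The 7 monocyte markers summed to 580 to 660 CPM and 571 to 597 CPM, with 3 higher and 1 lower. Among all tested genes 11.1% were higher and 9.06% lower. The part of neutrophils and monocytes in the Siglece difference was not tested.

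Cd33 (ENSMUSG00000004609, chr7:43524216-43544428, minus strand) encodes a myeloid Siglec whose human counterpart lies in a locus associated with Alzheimer's disease. Its counts were 16842, 13809 and 12809 in MRL/lpr and 23283, 18551 and 21039 in MRL/mpj. The highest MRL/lpr library stayed below the lowest MRL/mpj library, but replicate 1 was the highest of its strain in both. On the CPM scale the means were 319 ± 34.3 and 409 ± 41.2 (SD, n = 3 each), a fall of 0.36 on the log2 scale (SE 0.10, adjusted p 0.0277, edgeR). This call was the least firm of the 5. It was lost without MRL/lpr replicate 2 (adjusted p 0.102), MRL/lpr replicate 3 (0.154), MRL/mpj replicate 1 (0.117) or MRL/mpj replicate 3 (0.0784), although the log2 fold change stayed between -0.48 and -0.28 in all 16 alternative analyses.

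Siglecf (ENSMUSG00000039013, chr7:43351341-43359531, plus strand) encodes a receptor best known from eosinophils and alveolar macrophages, where it has an inhibitory role. It had 896, 1097 and 1068 counts in MRL/lpr and 2121, 1990 and 2191 counts in MRL/mpj. All 3 MRL/mpj libraries were close to each other, and the MRL/lpr libraries were well below them. The level went from 41.1 ± 1.17 CPM in MRL/mpj to 22.6 ± 3.3 CPM in MRL/lpr (SD, n = 3 each), a log2 fold change of -0.86 (SE 0.12, adjusted p 7e-04, edgeR). Among the eosinophil markers, Il5ra had 0 counts in all 6 libraries. The list summed to 17.2 to 22.5 CPM in MRL/lpr and 22 to 27.1 CPM in MRL/mpj. Of its 6 tested genes, Ear1 rose and Ear2 fell, beside 11.1% higher and 9.06% lower among all tested genes. The Ear2 call was lost in 5 of the 16 alternatives. Epx, the gene of eosinophil peroxidase, had 122 to 130 counts in MRL/lpr and 187 to 263 counts in MRL/mpj (adjusted p 0.0859, edgeR). Prg2, the most abundant of them, had 398 to 583 counts in MRL/lpr and 601 to 717 counts in MRL/mpj (adjusted p 0.417, edgeR). The part of eosinophil RNA in the Siglecf difference was not tested.

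The members that fell, Siglecf and Cd33, shared the longest identical run among the promoters of the family, and these are shown for that reason. The promoters are the 250 bases before the RefSeq start (build GRCm38.p6), which were available for 6 of the 7 members, and Siglec1 is the member without an entry. Siglecf lies at chr7:43351091-43351340 on the plus strand and Cd33 at chr7:43533172-43533421 on the minus strand, a start within the longer Cd33 span of the GENCODE annotation. Both are written 5′ to 3′ with the shared run in capitals.
Siglecf: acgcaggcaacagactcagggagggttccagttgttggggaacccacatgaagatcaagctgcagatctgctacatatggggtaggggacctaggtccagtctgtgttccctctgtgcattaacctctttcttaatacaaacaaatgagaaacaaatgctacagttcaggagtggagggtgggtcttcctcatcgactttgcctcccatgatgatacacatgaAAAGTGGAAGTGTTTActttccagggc
Cd33: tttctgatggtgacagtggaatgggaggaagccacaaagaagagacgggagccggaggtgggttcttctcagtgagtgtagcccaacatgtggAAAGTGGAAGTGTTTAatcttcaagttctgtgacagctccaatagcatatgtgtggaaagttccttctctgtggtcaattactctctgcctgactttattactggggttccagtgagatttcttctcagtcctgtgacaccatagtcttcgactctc
The run, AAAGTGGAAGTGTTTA, is 16 bases long and occurs in 2 of the 32851 promoters of the table, these same 2. Counted from the start, it lies at positions -27 to -12 in Siglecf and -157 to -142 in Cd33. Among the promoters compared, the next longest run was 10 bases, TCTTCCTCCT, between Siglece and Siglecg, which is found in 86 promoters. The run was picked after the values were seen and is given as a description of the sequences.

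3 short motifs were also searched in the promoters, on both strands. An interferon-response form, a pair of GAAA blocks with 2 free bases between them, was in none of the member promoters and in 2.98% of all promoters. The STAT-binding form TTCNNNGAA was in that of Siglech and in 7.02% of all promoters. The purine-rich form GAGGAAGT, known from myeloid genes, was in none of the member promoters and in 2.44% of all promoters. These letters say nothing beyond the window searched, and the promoter of Siglec1 was not analysed here.

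Siglecg (ENSMUSG00000030468, chr7:43408204-43418358, plus strand) encodes an inhibitory receptor first known from B cells, in which it limits antigen receptor signalling, and it also binds the sialylated protein CD24. The MRL/lpr libraries had 863, 838 and 805 counts and the MRL/mpj libraries 236, 214 and 186 counts. The strains were far apart and tight within themselves. The mean went from 4.15 ± 0.521 CPM in MRL/mpj to 18.5 ± 0.736 CPM in MRL/lpr (SD, n = 3 each), a log2 fold change of 2.15 (SE 0.15, adjusted p 1e-05, edgeR). Siglecg shared 4.48% of its 50-base transcript words with other annotated genes, most of them with the pseudogene Gm29791, which had 0 to 4 counts. Siglecf and Siglecg, the only members with words in common, shared 6 such words.

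Cd22 (ENSMUSG00000030577, chr7:30865402-30880342, minus strand), the B cell coreceptor that restrains signalling from the B cell receptor, was near the bottom of the family. Its counts were 213, 270 and 196 in MRL/lpr and 135, 249 and 308 in MRL/mpj. MRL/mpj held both the lowest and the highest library, so the strains overlapped completely. The log2 fold change was 0.15, its 95% confidence interval ran from -0.52 to 0.81 (adjusted p 0.794, edgeR), and it turned to -0.13 without MRL/mpj replicate 1. The interval leaves room for a change of the size of that of Siglece. The antisense transcript Gm29439 overlaps Cd22 but had 0 to 4 counts.

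For both of these B cell receptors the B cell markers were read beside them. None of the 7 tested markers of the 10 listed passed the test in edgeR, 3 had an unadjusted p under 0.05 (2 higher, 1 lower) and DESeq2 called 1 higher, and their summed level was 56.4 to 60.1 CPM in MRL/lpr and 60.5 to 71.5 CPM in MRL/mpj. Most of it came from Bank1, an adaptor gene with 2030 to 3190 counts. The defining marker Ms4a1 had 16 to 21 counts in MRL/lpr and 0 to 8 counts in MRL/mpj (adjusted p 0.187, edgeR). Fcer2a was at 0 counts throughout MRL/lpr and at 8 to 12 counts in MRL/mpj. Of 6 plasma cell markers 2 rose, Jchain and Mzb1, beside 11.1% of all tested genes. Jchain had 647 to 765 counts in MRL/lpr and 42 to 74 counts in MRL/mpj. The part of B lineage RNA in the Siglecg difference was not tested.

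Siglec1 (ENSMUSG00000027322, chr2:131069220-131086765, minus strand), the gene of sialoadhesin, an adhesion receptor of tissue macrophages, had the largest fold change of the family. Its counts were 473, 506 and 422 in MRL/lpr and 55, 38 and 87 in MRL/mpj. Each MRL/lpr library was several times above the highest MRL/mpj library, while the MRL/mpj libraries varied more among themselves in proportion. The level went from 1.17 ± 0.464 CPM to 10.3 ± 0.388 CPM (SD, n = 3 each), a log2 fold change of 3.14 (SE 0.28, 95% confidence interval 2.50 to 3.77, adjusted p 5.86e-05, edgeR). The call held in all 16 alternative analyses, but with a pseudocount of 1 added to the low FPKM values the log2 fold change was 0.95, under the minimum for differential expression.

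Siglec1 is a known interferon-induced gene, and the interferon-induced genes listed beside it rose together. All 24 of the 24 tested passed with higher values in MRL/lpr, beside 11.1% of all tested genes. Of the 24, 21 had a log2 fold change of at least 1, beside 4.67% of all tested genes. The median log2 fold change of the 24 was 1.76 against -0.01 over all tested genes. Their summed level was 1130 to 1250 CPM in MRL/lpr and 384 to 401 CPM in MRL/mpj. Siglec1 is also a marker of border macrophages, whose 9 other markers summed to 56.5 to 58.4 CPM in MRL/lpr and 58.9 to 68.6 CPM in MRL/mpj. None of the 9 rose in edgeR or DESeq2 (1 was higher at an unadjusted p under 0.05) and 2 fell, Mrc1 (log2 fold change -0.39, adjusted p 0.0443, lost in 7 of the 16 alternatives) and Cbr2 (-1.68, 2.2e-04, both edgeR). The median log2 fold change of the 9 was 0.21, and 9.06% of all tested genes were lower. The parts of interferon signalling and of border macrophages in the Siglec1 difference were not tested.

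The mouse genome holds further Siglec genes, of which a pair was listed beside the members. Mag, the myelin-associated glycoprotein of oligodendrocytes, had 1224 to 1576 counts per library and an adjusted p of 0.329 (log2 fold change 0.19, edgeR). The 6 oligodendrocyte markers summed to 103 to 121 CPM in MRL/lpr and 141 to 167 CPM in MRL/mpj. Of these markers 2 fell, beside 9.06% of all tested genes. Siglec15 had 0 counts in all 6 libraries.

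**Figure D2:**
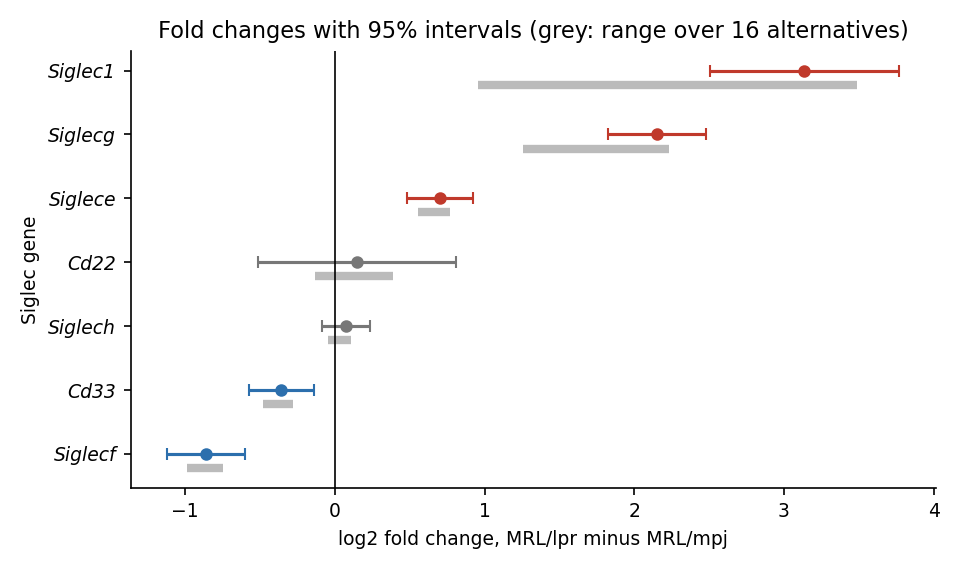
Log2 fold change (MRL/lpr minus MRL/mpj) of each Siglec gene with its 95% confidence interval, in red for genes that rose, in blue for genes that fell and in grey for genes that did not pass the test. The grey bar under each gene is the range over 16 alternative analyses, which reaches down to 0.95 for Siglec1 and crosses 0 only for Siglech and Cd22.

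Levels of different genes can be compared per length, on the deposited FPKM scale (fragments scaled for gene length and sequencing depth). In MRL/mpj the order was Siglech, Cd33, Siglece, Siglecf, Cd22, Siglecg and Siglec1. Siglech had 52.8 ± 3.27 FPKM and Cd33 49 ± 4.9 FPKM (SD, n = 3), and the ranges of this pair overlapped. Siglece followed at 26.5 ± 1.08 FPKM and Siglecf at 13.7 ± 0.389 FPKM, each apart from its neighbours in the order. Cd22 and Siglecg, at 0.827 ± 0.311 and 0.793 ± 0.103 FPKM, overlapped each other, and Siglec1 was last at 0.153 ± 0.0611 FPKM.

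In MRL/lpr the order was Siglech, Siglece, Cd33, Siglecf, Siglecg, Siglec1 and Cd22. Siglech stayed at the top with 51.1 ± 3.62 FPKM. Siglece, at 39.5 ± 3.57 FPKM, now overlapped with Cd33, at 35.2 ± 4.33 FPKM. Siglecf had 6.91 ± 0.859 FPKM, Siglecg 3.27 ± 0.0569 FPKM, Siglec1 1.23 ± 0.0751 FPKM and Cd22 0.837 ± 0.125 FPKM, none of them overlapping with the next. Both orders were the same with CPM per kilobase of merged exons. By mean FPKM in MRL/mpj, Siglech ranked 632 and Cd33 ranked 682 among the 30602 genes with an FPKM value, and Siglec1 ranked 18930. In MRL/lpr, Siglec1 ranked 11763, and Siglece went from rank 1436 to rank 877.

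**Figure D3:**
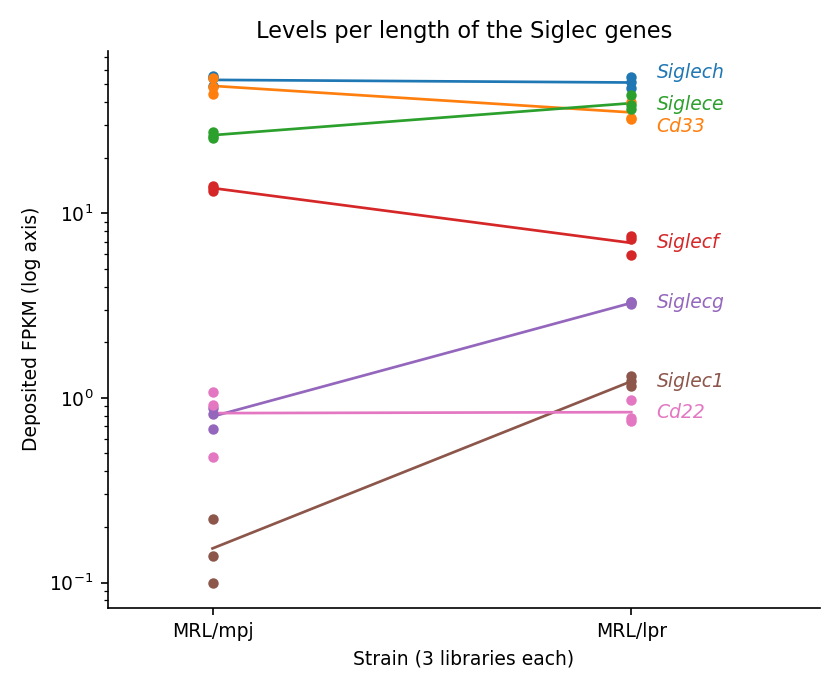
Deposited FPKM (log axis) of the 7 Siglec genes in the 3 libraries of each strain, with lines joining the strain means. Siglech runs level at the top, the lines of Cd33 and Siglece cross below it, and Siglec1 starts lowest in MRL/mpj at 0.153 FPKM and ends above Cd22 in MRL/lpr.

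The summed FPKM of the 7 members lay in the same range in both strains. It was 144.7, 133.4 and 136.2 in MRL/lpr and 144.2, 139.6 and 147.5 in MRL/mpj. The make-up of that sum differed. Siglech held 34.8% to 38.4% of it in MRL/lpr and 34.1% to 38.6% in MRL/mpj. The share of Cd33 was 23.9% to 27.8% in MRL/lpr and 31.8% to 37.6% in MRL/mpj, and that of Siglece was 26.7% to 31.9% and 17.8% to 18.8%. Siglecf held 4.1% to 5.53% of the sum in MRL/lpr and 9.5% to 9.53% in MRL/mpj, whereas Siglecg went the other way, with 2.29% to 2.42% and 0.461% to 0.61%. A share is a ratio within a library, so these values do not depend on how libraries were scaled to each other, but they are not independent of each other.

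Of the 7 genes, 4 lie near each other on chromosome 7, in the order Siglecf, Siglecg, Cd33 and Siglece. The genes of this cluster did not move as a block. Siglecg rose while Siglecf, whose start is 56863 bases away, fell, and Siglece rose while Cd33, 115733 bases away, fell. Between the start sites of Siglecf and Siglece lie further tested genes, and of the 9 tested genes other than Siglecs within 200 kb of Cd33 only Nkg7 passed the test. Nkg7, which encodes a granule protein of cytotoxic lymphocytes, starts 28869 bases from Siglecg and rose by a log2 fold change of 2.63 (adjusted p 2.11e-04, edgeR), from 0.574 ± 0.0714 to 3.56 ± 0.431 CPM (SD, n = 3 each). In the same libraries 5 of the 8 T and NK cell markers rose, beside 11.1% of all tested genes. The 8 summed to 11.6 to 17.1 CPM in MRL/lpr and 3.24 to 4.5 CPM in MRL/mpj. The call of Cd3d changed in 5 of the 16 alternative analyses and that of Trac in 4. The part of T and NK cell RNA in the Nkg7 difference was not tested.

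**Figure D4:**
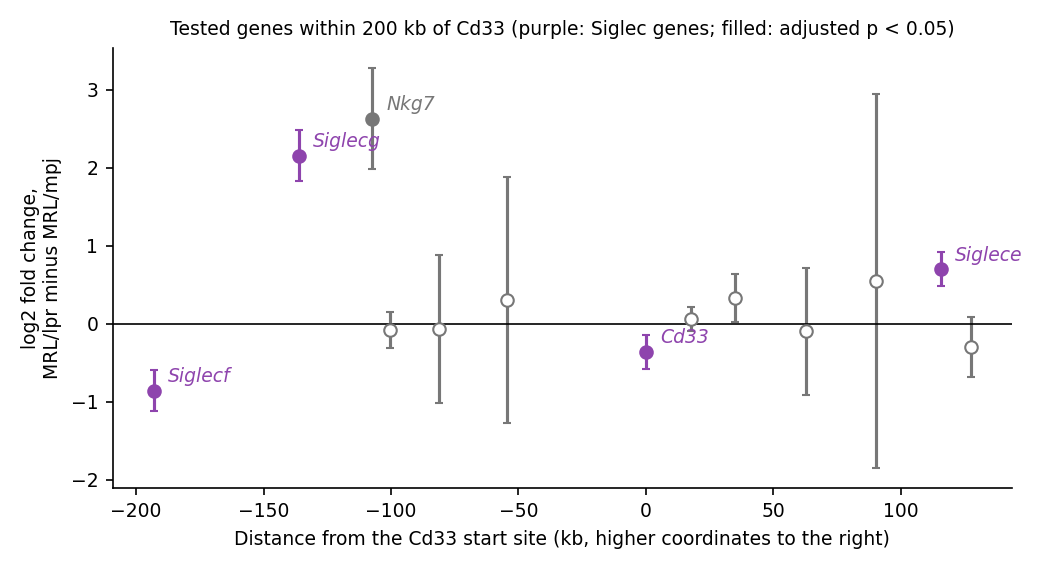
Log2 fold change (MRL/lpr minus MRL/mpj) with 95% confidence interval of the tested genes within 200 kb of Cd33, against distance from the Cd33 start in kb, with Siglec genes in purple, others in grey, and filled points for an adjusted p under 0.05. Siglecf and Cd33 lie below 0 and Siglecg and Siglece above it, and Nkg7 is the other filled point.

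Siglech, Cd22 and Siglec1 lie outside this cluster. Over the surroundings of all 7 members, 49 tested genes other than the members had their start within 200 kb, of which 4 rose and 5 fell, beside 11.1% higher and 9.06% lower among all tested genes, so the share called was near the background. Around Siglech none of the 6 tested neighbours passed the test in edgeR or DESeq2, and 1 was higher at an unadjusted p under 0.05. Around Siglec1, 1 of 14 rose and 2 fell. Around Cd22, 2 of 17 rose and 3 fell, among them Lgi4, which encodes a secreted protein of glial cells and had the smallest adjusted p of all neighbours (log2 fold change 2.55, adjusted p 3.21e-07), and Fxyd5, a regulator of the sodium pump (0.89, 4.86e-04, both edgeR), both of which rose and start 179000 and 162139 bases from Cd22.

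Among genes that pass on or answer the Siglec signal, the kinase genes Syk and Fyn rose and the phosphatases that Siglecs recruit did not pass the test. Of the 20 listed, all were tested, 5 rose, 1 fell and 14 did not pass, beside 11.1% higher and 9.06% lower among all tested genes, and no call reached a log2 fold change of 1 in size. Over the list, the log2 fold changes had a median of 0.14 against -0.01 over all tested genes. The phosphatase genes, through which inhibitory Siglecs act, did not pass the test. Ptpn6 had 259 ± 17.8 CPM in MRL/lpr and 279 ± 4.29 CPM in MRL/mpj, a log2 fold change of -0.11 (adjusted p 0.321). Ptpn11 had 103 ± 1.8 and 111 ± 4.07 CPM (-0.10, adjusted p 0.376), and Inpp5d, the gene of the lipid phosphatase SHIP1, had 1070 ± 42 and 943 ± 13.6 CPM (0.18, adjusted p 0.0537, all edgeR, SD, n = 3).

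Tyrobp, the gene of the adaptor that Siglec-H signals through, had 264, 268 and 304 CPM in MRL/lpr and 374, 373 and 319 CPM in MRL/mpj. The lowest MRL/mpj library was just above the highest MRL/lpr library. It fell by 0.35 on the log2 scale (SE 0.09, adjusted p 0.0177, edgeR), while Siglech itself had a log2 fold change of 0.07 and did not pass. The Tyrobp call was lost in 5 of the 16 alternative analyses, including those without MRL/lpr replicate 1 or 2 and without MRL/mpj replicate 1 or 2. Other genes of the list rose. Ptprc, the gene of the phosphatase CD45, rose by 0.54 (adjusted p 0.01), and the kinase genes Syk by 0.38 (adjusted p 0.00163) and Fyn by 0.44 (adjusted p 0.0374, all edgeR), the last of which was lost in 8 of the 16 alternatives. Socs3, a feedback inhibitor of cytokine signalling, rose by 0.38 (adjusted p 0.00201, edgeR).

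The genes that make, change or carry the sialic acid ligands were counted in 4 lists with 45 genes, of which 40 were tested. Of these 8 rose and 5 fell, beside 11.1% higher and 9.06% lower among all tested genes, and the median log2 fold change was 0.10. Among the 12 genes of sialic acid metabolism, Cmas, which activates sialic acid for transfer, rose by 0.36 (adjusted p 0.0122), and 3 fell. Npl, which breaks down free sialic acid, fell from 75 ± 3.35 to 30.9 ± 2.8 CPM (log2 fold change -1.28, adjusted p 1.4e-05). Casd1, which adds acetyl groups to sialic acid, and Siae, which removes them, fell by 0.40 (adjusted p 0.0117) and 0.36 (adjusted p 0.0273, all edgeR). The calls of Cmas and Siae were each lost in 5 of the 16 alternatives. Acetyl groups of this kind are known to hide the sugar from several Siglecs, CD22 among them.

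Sialyltransferases, which attach the sugar, moved in both directions, with 4 of 17 tested genes higher and 2 lower. St3gal4 rose from 10.5 ± 1.57 to 23.7 ± 2.93 CPM (log2 fold change 1.17, adjusted p 4.77e-04), and St3gal1 rose by 0.60 (adjusted p 0.00198). St8sia1 had the largest increase, 2.18, at a low level of 0.517 ± 0.352 and 2.35 ± 0.892 CPM (adjusted p 0.025), and lost its call in 5 of the 16 alternatives. St3gal5, which makes the ganglioside GM3, fell by 0.86 (adjusted p 7.9e-05, all edgeR). Of the sialidase list none of the 3 tested genes passed in edgeR, where all 3 had an unadjusted p under 0.05, while DESeq2 called 1 of them lower. Neu1 and Neu3 are sialidase genes, whereas Ctsa, listed with them, encodes cathepsin A, which is not a sialidase. The log2 fold change was -0.76 for Neu3 (adjusted p 0.0518), -0.22 for Ctsa (0.053) and 0.24 for Neu1 (0.0679, all edgeR).

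Of the 8 genes for proteins known to carry Siglec ligands, 3 rose and none fell, in edgeR and in DESeq2, with none lower at an unadjusted p under 0.05. Among all tested genes 11.1% were higher and 9.06% lower in edgeR. Spn, the gene of the mucin CD43, which is a counter-receptor of sialoadhesin, rose from 3.17 ± 0.149 to 9.98 ± 0.792 CPM (log2 fold change 1.65, adjusted p 1.14e-04). Lgals3bp, which encodes a heavily glycosylated secreted protein, rose from 77.6 ± 17.4 to 208 ± 38.7 CPM (1.42, adjusted p 0.00249), and Cd52, whose soluble product binds Siglec-10 in humans, rose from 21.7 ± 2.42 to 52.2 ± 4.88 CPM (1.27, adjusted p 5.6e-05, all edgeR, SD, n = 3). Cd24a, the gene of the protein bound by Siglec-G, had 27.9 ± 5.23 CPM in MRL/lpr and 24.9 ± 1.32 CPM in MRL/mpj and did not pass (adjusted p 0.468, edgeR), while Siglecg itself was 4.45-fold higher.

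**Figure D5:**
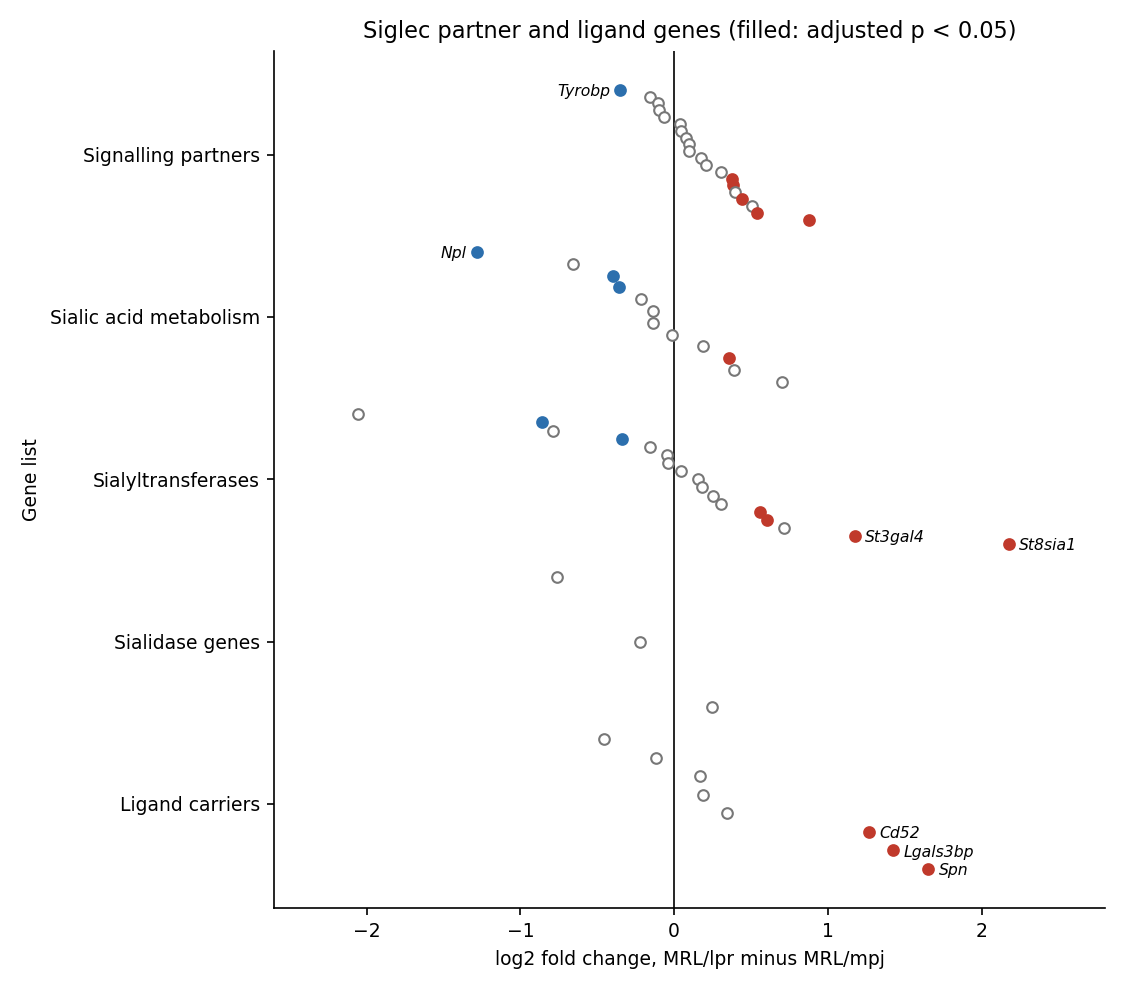
Log2 fold change (MRL/lpr minus MRL/mpj) of the tested signalling and ligand genes in 5 lists, with red points for genes that rose, blue points for genes that fell and open points for genes that did not pass the test. Most points are open and near 0, Npl is the lowest of the filled points at -1.28, and St8sia1 is the highest at 2.18.

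Genes with the profile most like that of a member were found from the root-mean-square distance of gene-centred log2 CPM over the 6 libraries, among tested genes with a mean of at least 10 CPM. For Siglec1 the nearest was Ifit3b, an interferon-induced gene, at a distance of 0.15, followed by Gm45540 (0.18) and Bcl2a1a (0.26). For Siglecg it was the DNA topoisomerase gene Top2a (0.06), then the class II antigen-presentation gene H2-Aa (0.10) and Mmd (0.12). Siglece had Arap1 and Coro7 among its nearest, at distances of 0.05 each, and Siglecf to Htra3 (0.06), Kank4 (0.07) and Ace (0.07). The members that did not pass the test had neighbours of small change, Rev1, Dmxl2 and Nfx1 for Siglech and Nfat5, Mier3 and Abl2 for Cd22, the latter at 0.12 to 0.13. Cd33 was nearest to Dusp22, Ndufa8 and 2810025M15Rik, at 0.05 to 0.06. With 6 libraries in 2 groups, many genes with a similar strain difference have such a profile, and the likeness is a description.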

How the data were processed

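The authors trimmed reads with cutadapt 1.9.3 and aligned them with HISAT2 2.0.4 to GRCm38, per the labels' processing notes, which also name Cufflinks and Cuffdiff 2.2.1. The counting tool, annotation and strand setting are not given in the sources used here, so for Cd22 reads of its antisense partner cannot be set apart. Library notes name ribosomal RNA depletion with a stranded kit, and the study's methods mRNA purification. The deposited counts are whole numbers per gene and library, not normalized. The deposited FPKM values were scaled by the authors for gene length and depth. Identifiers were matched to GENCODE M21 on GRCm38 (55141 of 55401), and the 260 others held 8124 to 16804 counts per library.

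The strains were compared in edgeR 4.0.16 (R 4.3.3) on the counts, with filterByExpr (minimum count 10, minimum total 15), TMM scaling, robust dispersions and the quasi-likelihood test, adjusted by Benjamini-Hochberg over all 19554 genes tested. Rose and fell mean an adjusted p under 0.05, and differential expression also a log2 fold change of 1 or more in size. With 3 libraries against 3, an exact permutation test cannot go below a p of 0.1 and was not used. Alternatives were DESeq2 1.42.0, other scalings, filters and dispersions, counts divided by 4, a replicate block, limma 3.58.1 on log2 FPKM with a pseudocount of 0.1 or 1, and each library left out. On simulated data of 18845 genes, 75% of the 100 genes changed by a log2 fold change of 2 and 49% of the 100 changed by 1 were called, with 16 others. Libraries of a strain differed by more than sampling noise, so none was counted as a duplicate. The members and lists were chosen with earlier results of these data known.

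Named were all members and the other listed Siglec genes, up to 4 passing genes per list with the largest change and a mean of at least 1 CPM, Tyrobp, Ptpn6, Ptpn11 and Inpp5d, the most abundant gene of each marker list, the 3 neighbours of smallest adjusted p and the 3 nearest profiles. Other genes in the text, such as Fas, Xist, Ddx3y, the sialidase genes, Ctsa, Cd24a, Socs3, Cbr2 and the further cell markers, were named after their values were seen. Some genes that the rule covers are not reported here. The length, identity and tyrosine motifs of the proteins were not analysed here.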

Additional observations from a re-analysis of the deposited data

How the results depend on the processing

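Siglec1, Siglecg, Siglece and Siglecf kept their call and direction in all 16 alternatives, and Siglech and Cd22 passed in none. For single members the sign of Siglech turned, to -0.049 with library size only, -0.047 with limma on log2(FPKM + 0.1) and -0.046 with limma on log2(FPKM + 1), and Cd22 ranged from -0.13 to 0.39 with a library left out, the former without MRL/mpj replicate 1. The count of members that fell ranged from 1 to 2 when a library was left out, as Cd33 lost its call, and 1 member instead of 2 was differentially expressed and higher with limma on log2(FPKM + 1). Signalling genes that rose came to 2 with both limma fits. Those that fell came to 3 with library size only and both limma fits, 0 with the replicate block, and 0 to 1 with a library left out. Ligand genes that fell came to 9 with library size only and both limma fits, 3 with the replicate block, and 2 to 7 with a library left out. Library size only moved the median log2 fold change of all genes to -0.13 and the split of calls to 1634 higher and 2790 lower, against 2178 and 1772. The replicate numbers did not pair the libraries, with correlations of -0.04, -0.02 and -0.03, and the replicate block called 3063 genes in place of 3950. The cause of these shifts was not tested. Siglec1 had the fewest counts of the members in MRL/mpj, 38 to 87, and Cd22 the widest standard error of its log2 fold change, 0.29, with 135 to 308 counts there.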
